A study of Schizosaccharomyces pombe with 4 samples.

Results

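The small subunit of the cytosolic ribosome, the 40S subunit, was represented by 51 of the 4997 array genes. They were chosen by the array's own descriptions, as every gene described as a 40S ribosomal protein, leaving out mitochondrial and 60S proteins, biogenesis factors and kinases. No measured value entered that rule, though the group was chosen with earlier results of these data known. The genes fell into 31 protein families, numbered S0 to S30, and no number between these was missing. Among these 51 genes, 12 families were represented by a single gene, 18 by 2 genes and 1, S4, by 3 genes. The genes lay on all 3 chromosomes, with 27 on chromosome I, 17 on chromosome II and 7 on chromosome III.

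The study compared a red2 deletion strain (source name SP744) with a wild-type strain (FY12806) of the fission yeast Schizosaccharomyces pombe, a unicellular eukaryote. Each group had 2 arrays, 4 in all. Both strains were in logarithmic growth in rich medium (YEA, yeast extract with glucose and adenine), and total RNA was labelled with the dye Cy3 and hybridised to a 1-colour NimbleGen array of 60-mer probes. The labels give no other allele or agent for either strain, and no number of deletion clones. One label of deletion replicate 2 speaks of red3, while its title and strain label say red2, and it was kept with the red2 deletion arrays. It is not stated whether the 2 arrays of a strain used RNA of independent cultures, and the p-values cover no more than the scatter between these arrays, possibly only technical scatter. The array codes in the column headers share their first part within each strain and differ in it between the strains. If that part numbers the slide, which no label states, each strain had a slide of its own. The effect of slide and of genotype cannot then be told apart. The red2 transcript itself could not be looked up among the array genes by name, and the deletion was not checked.

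The 40S subunit binds the messenger RNA, scans for the start codon and holds the decoding centre where codon and anticodon pair. Its proteins are made in near-equal numbers and join the ribosomal RNA in the nucleolus and cytoplasm, and their messages are among the most abundant in growing yeast. Most of the proteins are encoded in fission yeast by more than 1 gene, and such paralogous copies have the same or nearly the same sequence.

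Values are intensities as the authors deposited them, after a normalization named RMA. Each gene has 2 values per array, called blocks here, and the mean of their log2 values was used. The median intensity of all genes was 22141.0 and 22158.1 on the deletion arrays, against 21231.7 and 21304.1 on the wild-type arrays. The highest value on any array was 65027.6, close to the top of a 16-bit scale. Of the 51 small-subunit genes, 37 were among the brightest 10% of array genes, and their median place was the 94.2th percentile of signal. The genes were also short, with a median span from start to end of 520 bp (238 to 1002 bp), against 1194 bp for all array genes. Both properties bear on the results and are taken up below. A lower signal in all cells and a loss of signal from some of the cells cannot be told apart in RNA from whole cultures.

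Of the small-subunit genes, 4 were clearly lower in the deletion strain, while the differences of most others were small and turned in direction with the treatment of gene length. The log2 fold change, deletion over wild type, was below 0 in 45 of the 51 genes, with a median of -0.11, against 0.011 over all array genes. By limma with Benjamini-Hochberg adjustment over all array genes and a threshold of 0.05, 20 small-subunit genes (39.2%) were lower, 1 was higher and 30 did not pass. The same test called 29.8% of all array genes lower and 34% higher. The share of small-subunit genes called lower was thus above that of the whole array, and the share called higher (1.96%) under it. These genes are short, and with a trend on gene length removed 4 were lower and 16 higher, with a median of 0.11. With each array centred on its median, 34 were lower and none higher by limma. At an unadjusted p under the same threshold, 23 were lower and rps2202 was again the 1 gene higher. Without wild-type replicate 1, and likewise without wild-type replicate 2, the adjusted count of lower genes was 9. The deletion arrays both lay below both wild-type arrays in 43 small-subunit genes, where 41.2% of all array genes did so, and both lay above in 5, where 43.4% of all array genes did so. In the other 3 the groups overlapped.

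A decrease of at least 1.5-fold that passed the test was found in 4 of the 51 genes, where 9.81% of all array genes had one. No small-subunit gene was at least 1.5-fold higher, against 10% of all array genes. The share with such a decrease was thus close to that of the whole array, and the share with such an increase under it. The measured difference was small for nearly all of these genes, and a few copies stood apart, as the plot of all fold changes shows. Most of these genes lie near the top of the scale, where fold changes were smaller, as given below. The part of this in the small differences was not tested.

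**Figure D1:**
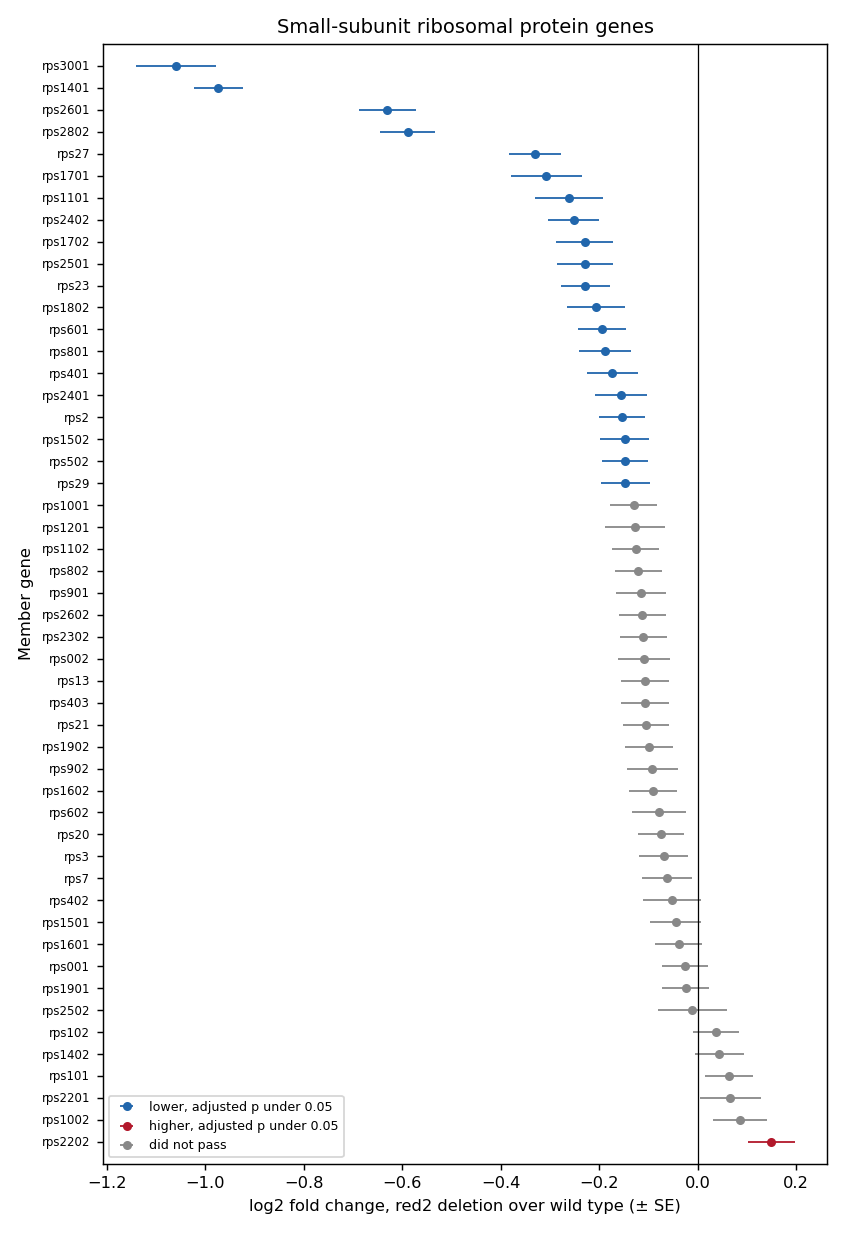
Log2 fold change, red2 deletion over wild type, of 50 of the 51 small-subunit genes with limma's standard error (points and bars, n = 2 arrays per group), sorted from the lowest at the top. Blue points passed the test as lower, the red point as higher and grey points did not pass; rps3001, rps1401, rps2601 and rps2802 lie apart from the others, which sit between -0.33 and 0.15.

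The lowest gene was rps3001 (chromosome I, 4851536 to 4851773), which encodes S30, a small basic protein that in mammals is made as a fusion with a ubiquitin-like protein. Its intensity was 5965 and 5249 on the deletion arrays, against 12222 and 11140 on the wild-type arrays. Both deletion arrays were far below both wild-type arrays. The log2 fold change was -1.06 ± 0.082 (limma SE, n = 2 arrays per group, adjusted p = 0.000175), a 2.09-fold lower signal in the deletion. At 238 bp it is the shortest of the 51 genes and, at the 15.7th percentile of signal, the one farthest from the top of the scale.

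Next was rps1401 (chromosome I, 3428458 to 3428877), 1 of 2 genes for S14, a protein of the subunit's platform. It gave 23710 and 22807 on the deletion arrays, against 45375 and 45986 on the wild-type arrays. The arrays of each group lay close together and the groups far apart, with a log2 fold change of -0.97 ± 0.050 (adjusted p = 6.31e-05), or 1.96-fold lower in the deletion.

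The other clear decreases were in rps2601 and rps2802. The gene rps2601 (chromosome I, 245877 to 246239) encodes S26, which lies by the exit of the messenger RNA channel. Its intensity was 30257 and 32790 on the deletion arrays, against 49091 and 48427 on the wild-type arrays, with a log2 fold change of -0.63 ± 0.058 (adjusted p = 0.000313). The gene rps2802 (chromosome III, 1831007 to 1831263) encodes S28, a small protein of the head, also near the messenger RNA exit. It stood at 29741 and 31976 on the deletion arrays, against 46056 and 46704 on the wild-type arrays, with a log2 fold change of -0.59 ± 0.056 (adjusted p = 0.000352). In both genes the groups were well separated. All 4 decreases passed in each of the 14 alternative fits and array sets in which single genes were tested, and the smallest change among those was -0.29, for rps2802 with trends on length and signal removed.

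**Figure D2:**
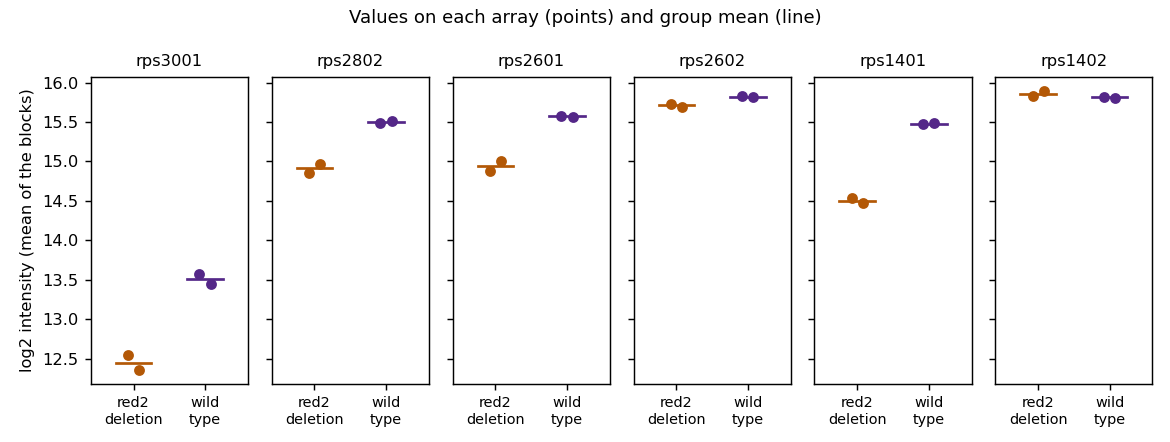
Log2 intensity, averaged over the blocks, of 6 small-subunit genes on each of the deletion arrays (orange, left) and wild-type arrays (purple, right); points are arrays and lines group means. In rps3001, rps2802, rps2601 and rps1401 the deletion arrays lie far below the wild-type arrays, while in rps2602 and rps1402, the second copies of the S26 and S14 genes, the group means differ by -0.11 and 0.044.

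A further 6 genes were among the 10 lowest, with differences of 0.33 or less. The gene rps27, for the zinc-binding protein S27, gave 15.30 and 15.22 on the log2 scale in the deletion, against 15.60 and 15.58 in wild type, a change of -0.33 ± 0.053 (adjusted p = 0.00247). The S17 gene rps1701 gave 15.35 and 15.17 in the deletion, against 15.59 and 15.54 in wild type (-0.31 ± 0.073, adjusted p = 0.0122), and its partner rps1702 gave 15.54 and 15.63, against 15.77 and 15.85 (-0.23 ± 0.058, adjusted p = 0.0157). Counting only copies among the 51 genes, S17 was one of 2 families, with S24, in which both copies passed as lower. Second copies outside the 51 are given below. The S24 gene rps2402 gave 15.48 and 15.41 in the deletion, against 15.68 and 15.71 in wild type (-0.25 ± 0.051, adjusted p = 0.00644), and rps2401 gave 15.10 and 15.19, against 15.30 and 15.30 (-0.16 ± 0.053, adjusted p = 0.043). The gene rps1101, for S11, gave 15.64 and 15.47 in the deletion, against 15.83 and 15.80 in wild type (-0.26 ± 0.069, adjusted p = 0.0175), and rps23, for S23 of the decoding centre, gave 15.56 and 15.62, against 15.82 and 15.82 (-0.23 ± 0.050, adjusted p = 0.00892). In each of these genes both deletion arrays were below both wild-type arrays. Those 6 lost their call in some alternatives, between 2 of 14 for rps27 and rps1701 and 5 of 14 for rps23. The calls of rps1101, rps1702, rps23 and rps2401 were among those lost with an array left out, a fit that leaves a group with a single array. Their fold changes kept their sign there. Without wild-type replicate 1 and without wild-type replicate 2, rps23 stood at -0.23 and -0.226, and rps2401 at -0.157 and -0.156. Without wild-type replicate 1, rps1101 stood at -0.248. Without wild-type replicate 2, rps1702 stood at -0.187, and without deletion replicate 1, rps2401 stood at -0.113.

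Of the proteins of the head, which swivels as the ribosome moves along the message, 13 families with 20 genes were represented. Among these 8 were lower, none was higher and 12 did not pass, with a median of -0.11. The families of the body and platform held 31 genes, of which 12 were lower, 1 was higher and 18 did not pass, also with a median of -0.11. Over all array genes, 29.8% were lower and 34% higher. With the length trend removed, the head had 1 lower and 7 higher (median 0.109) and the body and platform 3 lower and 9 higher (median 0.101). The assignment to head or body was made after the values were seen and was not tested. The S2 gene rps2, for a protein at the messenger RNA entry, was lower (-0.15 ± 0.047, adjusted p = 0.0293). The S3 gene rps3, also for a protein there, did not pass (-0.069 ± 0.049, adjusted p = 0.26). The proteins at the entry and those at the exit were not collected or compared as groups. Of the S6 genes, whose protein is phosphorylated downstream of the TOR kinase, rps601 was lower (-0.19 ± 0.049, adjusted p = 0.0156) and rps602 did not pass (-0.078 ± 0.055, adjusted p = 0.259). The S9 genes rps901 and rps902, for a protein that affects decoding accuracy, did not pass, at -0.12 ± 0.050 and -0.092 ± 0.052. The S0 genes, homologues of the mammalian laminin receptor precursor, also did not pass, with rps001 at -0.025 ± 0.047 and rps002 at -0.11 ± 0.053.

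The only gene that passed as higher was rps2202 (chromosome I, 1503959 to 1504351), 1 of 2 genes for S22, known as S15a in mammals. It gave 14.95 and 14.94 on the deletion arrays, against 14.81 and 14.79 on the wild-type arrays. The groups did not overlap, and the log2 fold change was 0.15 ± 0.047 (adjusted p = 0.0334). The call held in 5 of 14 alternatives, and it was lost without deletion replicate 1 and without either wild-type array, with adjusted p = 0.0537, 0.157 and 0.224. The other genes above 0 were rps1002 (0.087 ± 0.055), rps2201 (0.066 ± 0.062), rps101 and rps102, for the protein called S3a in mammals (0.064 ± 0.049 and 0.038 ± 0.047), and rps1402 (0.044 ± 0.050), and none of these passed.

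Paralogues gave 21 pairs, counting 3 for S4, and 4 pairs differed in their fold change. To test this, the difference in log2 intensity between the copies was taken on each array and added to the fit of all genes. The median absolute difference between copies was 0.091 on the log2 scale. Copies of 5 pairs (S11, S14, S16, S22 and S23) share a single protein entry in the array's deposited annotation. They are listed there as the same protein, and their sequences were not compared. How far the probes of one copy take up the message of the other was not tested.

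The largest split was in S14, where both copies are annotated as the same protein and span 420 bp. While rps1401 was lower as given above, rps1402 (chromosome II, 1751462 to 1751881) gave 15.83 and 15.89 on the deletion arrays, against 15.82 and 15.81 on the wild-type arrays, a change of 0.044 ± 0.050 (adjusted p = 0.475). The difference between rps1401 and rps1402 was -1.30 and -1.42 on the deletion arrays, against -0.35 and -0.32 on the wild-type arrays. The fold changes therefore differed by -1.02 ± 0.059 (adjusted p = 7.91e-05), and by -0.78 (adjusted p = 0.000166) after trends on length and signal were removed. The signal of rps1402 lies at the 98.5th percentile of array genes and that of rps1401 at the 70th. Fold changes were smaller near the top of the scale, as given below, and apart from the trend-removed value the part of this in the S14 split was not tested, so its size is uncertain.

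In S26, the copies encode proteins with separate entries. The gene rps2602 (chromosome I, 2785188 to 2785647) gave 15.73 and 15.69 in the deletion, against 15.83 and 15.81 in wild type, at -0.11 ± 0.048 (adjusted p = 0.0894). The decrease of rps2601 was larger by 0.52 on the log2 scale (difference -0.519 ± 0.065, adjusted p = 0.000938). As for S14, this difference passed in all 14 alternatives. On the intensity scale rps2601 lay at the 78.9th and rps2602 at the 96.5th percentile of array genes.

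Smaller splits were found in S10 and S25. For S10, a protein of the head's beak, rps1001 gave 15.76 and 15.77 in the deletion, against 15.90 and 15.89 in wild type, and rps1002 gave 15.70 and 15.80, against 15.65 and 15.67. Neither copy passed by itself, with rps1001 at -0.13 ± 0.047 (adjusted p = 0.0514), yet the copies lay on opposite sides of 0 and differed by -0.217 ± 0.054 (adjusted p = 0.0136). For S25, which some viral messages need for internal initiation in other eukaryotes, rps2501 gave 14.94 and 14.99 in the deletion, against 15.15 and 15.24 in wild type (-0.23 ± 0.057, adjusted p = 0.014). Its partner rps2502 gave 15.62 and 15.77, against 15.66 and 15.75 (-0.011 ± 0.070), with overlapping groups. The S25 copies differed by -0.217 ± 0.056 (adjusted p = 0.0157). The S10 difference passed in 10 and the S25 difference in 9 of 14 alternatives, and the S25 difference fell to -0.042 (adjusted p = 0.569) after trends on length and signal were removed. Without wild-type replicate 1 or wild-type replicate 2, neither passed, and 2 pairs in all did so. Without deletion replicate 1, 8 pairs passed.

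**Figure D3:**
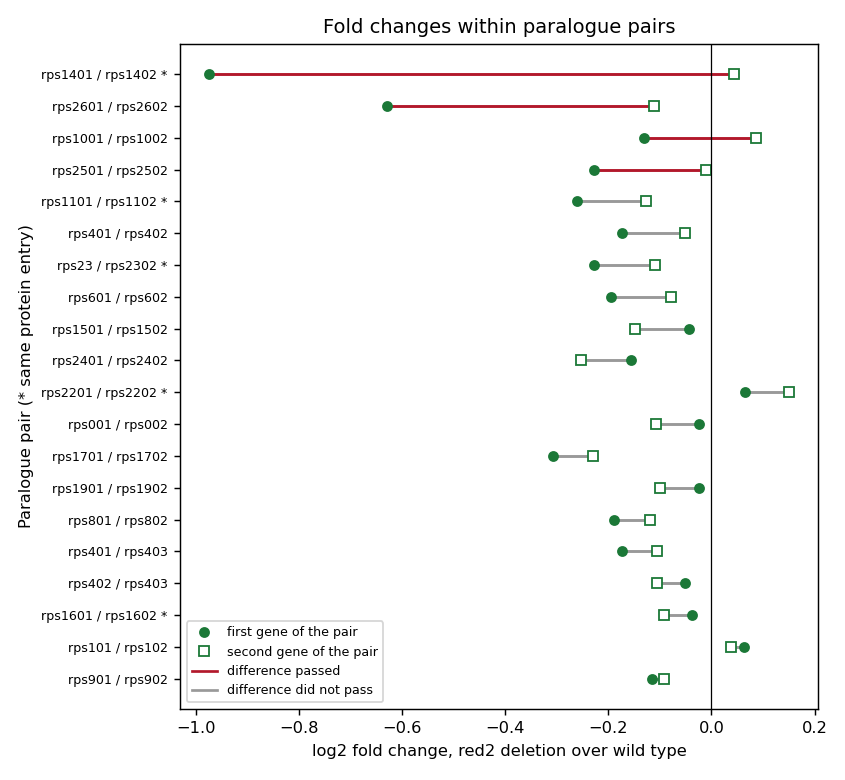
Log2 fold change, red2 deletion over wild type, of the first gene (filled circle) and second gene (open square) of each of 20 of the 21 small-subunit paralogue pairs, sorted by the size of their difference (n = 2 arrays per group). Red lines join the 4 pairs whose difference passed the test and an asterisk marks copies with the same protein entry; S14 and S26 have the longest lines.

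The other 17 pairs did not pass. The 3 closest were rps901 and rps902, with a difference of -0.023 (95% interval -0.144 to 0.097), rps101 and rps102, with 0.026 (-0.094 to 0.146), and rps1601 and rps1602, with 0.053 (-0.077 to 0.182). These intervals are narrow beside the S14 and S26 differences, though they include values up to 0.18. The copies of these 3 pairs lie between the 93.2th and the 99.6th percentile of signal, where fold changes were smaller, as given below. The part of this in their small differences was not tested. The S9 gene rps901 gave 15.69 and 15.73 in the deletion, against 15.84 and 15.80 in wild type, and rps902 gave 15.73 and 15.80, against 15.86 and 15.85. The S1 genes lay above 0 without passing, with rps101 at 15.70 and 15.71 in the deletion, against 15.67 and 15.62 in wild type, and rps102 at 15.82 and 15.80, against 15.78 and 15.77. In S4, the family of 3, the copies rps401, rps402 and rps403 changed by -0.17 ± 0.052, -0.051 ± 0.059 and -0.11 ± 0.049, of which the first alone passed (adjusted p = 0.0287). The copies rps401 and rps402 differed by -0.122 ± 0.049 (adjusted p = 0.0735). The S22 copies, both above 0, differed by -0.084 ± 0.062 (adjusted p = 0.282), and by -0.299 (adjusted p = 0.00959) after trends on length and signal were removed, so that this call depended on the setting. So did that of the S24 copies rps2401 and rps2402, which differed by 0.096 ± 0.065 (adjusted p = 0.243), and by 0.191 (adjusted p = 0.0366) with both trends removed. In that setting 5 pairs passed in all.

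The 31 families had no gap between S0 and S30. However, 3 further array genes are described as S18, S28 and S30 proteins without the words that chose the 51. They share a protein entry with rps1802, rps2802 and rps3001, were looked up after the values were seen, and are not counted in any total. All 3 passed as lower, as did rps1802, rps2802 and rps3001. The S30 copy (chromosome II, 2308156 to 2308513) gave 13.93 and 13.90 in the deletion, against 14.77 and 14.66 in wild type (-0.81 ± 0.058, adjusted p = 0.000145). Both S30 genes were therefore lower, with rps3001 lower by a further 0.26 (rps3001 minus this copy, -0.256 ± 0.065, adjusted p = 0.0156). The S28 copy (chromosome I, 4267172 to 4267527) gave 15.12 and 15.13 in the deletion, against 15.38 and 15.40 in wild type (-0.26 ± 0.047, adjusted p = 0.00396), less of a decrease than rps2802 (rps2802 minus this copy, -0.326 ± 0.055, adjusted p = 0.00306). The S18 copy (chromosome II, 3578916 to 3579526) gave 14.62 and 14.64 in the deletion, against 15.06 and 14.98 in wild type (-0.39 ± 0.053, adjusted p = 0.00125), and so fell more than rps1802, which changed by -0.21 ± 0.059 (rps1802 minus this copy, 0.185 ± 0.052, adjusted p = 0.0219). The genes of these 3 pairs differ in length, at 518 against 611 bp for S18, 257 against 356 bp for S28 and 238 against 358 bp for S30. The signal of rps1802 lies at the 93rd percentile and that of rps3001 at the 15.7th. These 3 differences were not taken with trends on length and signal removed, and the part of either in them was not tested.

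Gene length moved with the fold change across the whole array, and the small-subunit genes are short. Within the 51 genes, Spearman's rho of fold change with length was 0.221, against 0.445 over all array genes, where longer genes tended to be higher in the deletion. Genes are not independent replicates, and these are descriptions. The 9 small-subunit genes of 400 bp or less had a median of -0.10, against -0.23 for all array genes of that length. From 400 to 600 bp the median of 22 small-subunit genes was -0.13, against -0.25 for the array, and from 600 to 800 bp that of 15 was -0.12, against -0.21. From 800 to 1100 bp it was -0.069 for 5 small-subunit genes, against -0.10 for the array. In each length range the median of the small-subunit genes was closer to 0 than that of array genes of like length, a description that was not tested. The share called lower was also smaller at like length, at 4 of 9 small-subunit genes against 51.9% of array genes up to 400 bp and 10 of 22 against 58.8% from 400 to 600 bp. It was 5 of 15 against 53% from 600 to 800 bp and 1 of 5 against 42.9% from 800 to 1100 bp. The share called higher was smaller too, in the same order 1 of 9 against 21.7%, 0 of 22 against 15.5%, 0 of 15 against 18.3% and 0 of 5 against 21.5%. At like length, calls were thus fewer in both directions. Most small-subunit genes lie near the top of the scale, where changes were smaller, and the part of this was not tested.

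**Figure D4:**
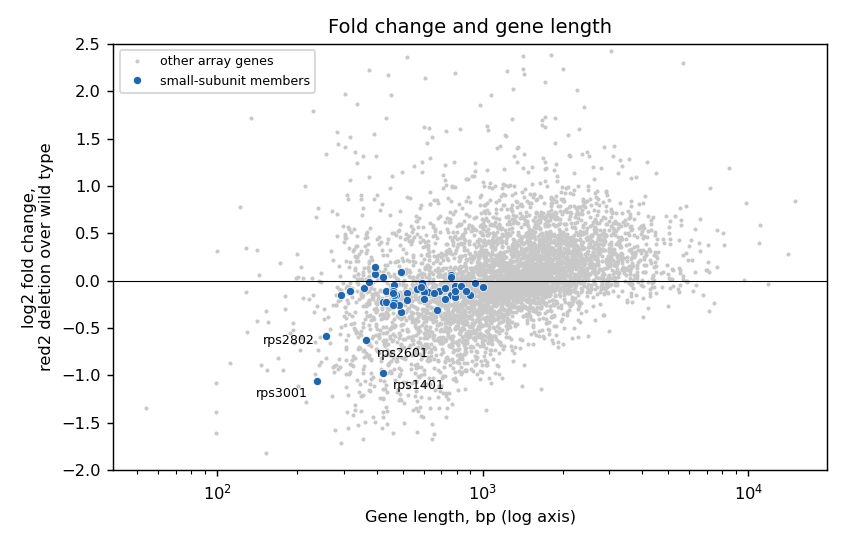
Log2 fold change, red2 deletion over wild type, against gene length in bp (log axis) for the 51 small-subunit genes (blue) and the other array genes (grey), with 11 genes beyond the vertical axis not drawn. Short genes lie lower on the whole. The genes rps3001, rps1401, rps2601 and rps2802 fall within the cloud of short genes. The other small-subunit genes lie between -0.33 and 0.15, inside the same cloud.

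With the length trend removed from each array, the sign of the group's median turned. The median of the 51 genes was then 0.11, against -0.039 over all array genes. The count was 4 lower and 16 higher, where 35.2% of array genes were lower and 28.6% higher. The 4 lower genes were rps3001 (-0.78), rps1401 (-0.72), rps2601 (-0.38) and rps2802 (-0.32). The other 16 lower calls were lost, and none of them became higher, while 15 genes that had not passed became higher. The direction turned in 34 of the 51 genes, of which 10 had been called, among them rps29 (0.11), rps1502 (0.108), rps2401 (0.101) and rps2402 (0.005), and none of these 4 passed then. The gene rps29, for the zinc-binding protein S29, had given 15.63 and 15.68 in the deletion, against 15.83 and 15.79 in wild type (-0.15 ± 0.050, adjusted p = 0.0433). The S15 gene rps1502 had given 15.50 and 15.51 in the deletion, against 15.69 and 15.62 in wild type (-0.15 ± 0.050, adjusted p = 0.0428). The rps29 call was lost without deletion replicate 1 or either wild-type array, and the rps1502 call without any 1 of the 4 arrays. The same 4 paralogue pairs passed with the length trend removed as without.

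Signal near the ceiling was the other property shared by these genes, and changes were smaller there. The 37 small-subunit genes among the brightest 10% of array genes had a median of -0.099, with 9 lower and 0 higher. All 500 array genes in that range had a median of -0.044, with 13.8% lower and 6.2% higher. The 14 other small-subunit genes had a median of -0.24, with 11 lower and 1 higher, while the 4497 other array genes had a median of 0.035, with 31.5% lower and 37.1% higher. The median absolute fold change of array genes was 0.078 in the brightest 10% and 0.298 in the rest. Within the 51 genes, fold change and mean signal gave a Spearman's rho of 0.555.

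The brightest genes were rps1602, rps1901 and rps1601, and none of these passed. The gene rps1602, for S16, gave 58316 and 60416 on the deletion arrays, against 63044 and 63358 on the wild-type arrays (-0.091 ± 0.049, adjusted p = 0.155). Its partner rps1601 gave 59540 and 58629, against 61312 and 60008 (-0.038 ± 0.048), and rps1901, for S19, a protein whose human gene is altered in Diamond-Blackfan anaemia, gave 60894 and 59691, against 60972 and 61625 (-0.024 ± 0.048). In all 3 both deletion arrays lay below both wild-type arrays, by small margins. The dimmest were rps3001, rps2202 and rps1401, which included both the largest decreases and the only increase. With trends on both length and signal removed, 5 genes were lower and 4 higher, with a median of -0.024, where 32.1% of array genes were lower and 26.9% higher. The lower genes were those 4 and rps27 (-0.154), and the higher ones rps2202 (0.499), rps2201 (0.201), rps1002 (0.189) and rps101 (0.158).

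**Figure D5:**
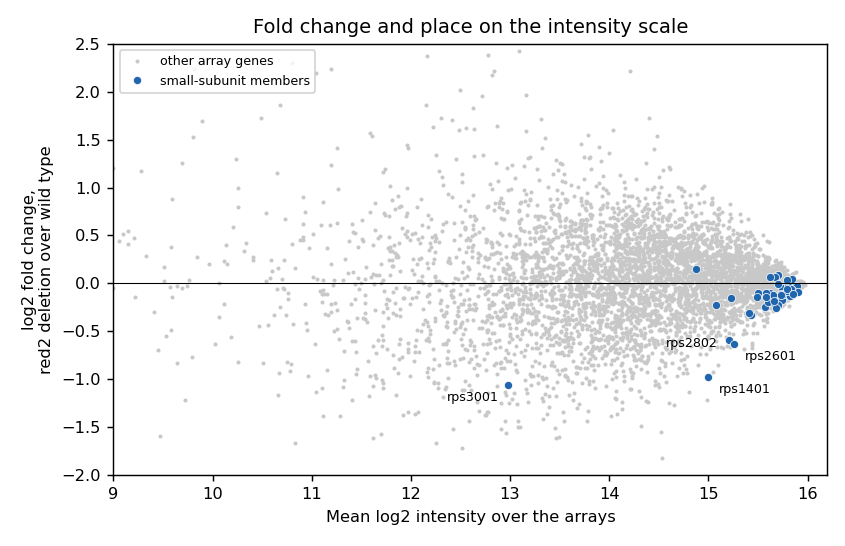
Log2 fold change, red2 deletion over wild type, against the mean log2 intensity over the arrays for the 51 small-subunit genes (blue) and the other array genes (grey), with 90 genes beyond the axes not drawn. Fold changes narrow towards the right end of the scale, where most small-subunit genes lie, and rps3001, rps1401, rps2601 and rps2802 lie left of and below that cluster.

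Other parts of the translation machinery were counted in the same way. The 76 large-subunit genes had 30 lower (39.5%), 3 higher and a median of -0.10, and with the length trend removed 10 lower, 24 higher and a median of 0.081. The share called lower was thus 39.2% in the small subunit and 39.5% in the large one, and the difference was not tested. The 6 genes for the acidic proteins of the large subunit's stalk had 2 lower, with the other 4 not passing. The words that chose the 76 did not leave these out, so the lists can share genes. Of 32 genes for mitochondrial ribosomal proteins, which are also short (median 595.5 bp) but lie lower on the scale (38.7th percentile of signal), 18 were lower and 6 higher, with a median of -0.36. Translation initiation factors had 5 lower and 1 higher of 24 (median -0.042), elongation factors 1 lower and 3 higher of 10 (median 0.024), and genes of ribosome biogenesis and the nucleolus 5 lower and 4 higher of 12 (median -0.031), where 29.8% of all array genes were lower and 34% higher. With the length trend removed, mitochondrial ribosomal proteins had 16 lower and 8 higher (median -0.164), the acidic proteins 3 lower and 1 higher (median -0.060), initiation factors 9 lower and 2 higher (median -0.123), elongation factors 4 lower and 2 higher (median -0.148) and the biogenesis genes 4 lower and 2 higher (median -0.055).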

How the data were processed

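The authors deposited linear intensity values for the 4 arrays made with RMA, of no stated version, per the submitters' processing notes. Not given in the sources used here were the RMA steps that were run, the annotation build and the meaning of the 2 blocks per gene. The deposited ratio of each pair table, deletion over wild type, equalled the quotient of its intensity columns on all 9994 lines within 4.8e-09. Array coordinates are as deposited, and gene length includes introns.

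All log2 values were computed here, from the deposited intensities, and averaged over the blocks, with no pseudocount, filter or further scaling. limma 3.58.1 (R 4.3.3; lmFit, eBayes) was fitted to all 4997 genes on genotype alone, with two-sided p-values adjusted by Benjamini-Hochberg and a threshold of 0.05. Errors after ± are limma's standard errors. Paralogue differences were added as rows to that fit, 5018 rows in all. The fits were tested on simulated data. The 4 arrays limit the precision.

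Symbols came from the RefSeq table (assembly ASM294v3), by S number and position within 100 kb for 49 genes and by position alone, within 1 kb of the neighbours' offset, for the other 2. The values of 1 gene are not reported here by name, and it counts in the totals only. Pairs are genes with the same S number.

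The 51 genes, the companion lists and the tests were chosen with earlier results of these data known. Values on every array are given for up to 10 lowest and 10 highest genes past the threshold without overlap, for pairs that passed and the 3 closest pairs, for the 3 brightest and 3 dimmest genes, and for up to 4 that turned with length removed. No gene was described as a ubiquitin-fused ribosomal protein. Alternatives were quantile normalization, centring arrays, removing a loess trend (span 0.5) on length or on length and mean signal, leaving out the brightest 10% or dimmest 25% of genes, adding 32, each block alone, each array left out, the replicate number as a block, the deposited ratios, a trend in eBayes, and stricter thresholds. Sequences, promoters and probes were not analysed here.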

Additional observations from a re-analysis of the deposited data

How the results depend on the processing

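The 20 lower and 1 higher calls, the median of -0.112 and the 4 paralogue differences depended on the processing as follows. Lower calls numbered 34 with arrays centred on their median, 4 with the length trend removed, 5 with length and level trends removed, 11 of 14 with the brightest 10% left out, 13 with either block alone, 33 with a trend in eBayes, 7 at a threshold of 0.01 and 4 at 1.5-fold. Higher calls numbered 16 and 4 with the length trend and with both trends removed, and 0 with quantile normalization, centring, either block alone, the deposited ratios, a threshold of 0.01 or 1.5-fold. The median was -0.167 with centring, 0.106 with length removed, -0.024 with both removed and -0.24 without the brightest genes. With each array left out in turn, lower calls ran from 9 (without either wild-type array) to 21, higher calls from 0 to 1 and paralogue differences from 2 to 8, the lone array being assumed to vary like the other group. Paralogue differences numbered 2 with a trend in eBayes and 2 at 0.01. With the length trend removed, signs turned for 34 of the 51 genes, 10 of them called; they include rps2402 (0.005), rps1702 (0.028), rps23 (0.027), rps1602 (0.151), rps1901 (0.208), rps1601 (0.193), rps29 (0.11), rps2401 (0.101, and 0.078 with both removed) and rps1502 (0.108). Beyond what fewer genes or arrays do by construction, the cause was not tested. Absolute changes were smaller near the top of the scale (a median of 0.078 in the brightest 10% of array genes and 0.298 in the rest).

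Blocking on replicate number left 15 genes lower, 0 higher and 4 paralogue differences. The deposited ratios gave the same fold changes and adjusted p-values by limma as this block. Among the 14 alternatives for single genes and pairs, they are therefore the same fit counted again. The deviations of arrays with the same number correlated at -0.0411 over all genes and at 0.367 over the 51 small-subunit genes. The deposited pair tables set arrays of the same number side by side, while no sample label states a pairing.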

Other observations

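In 3 places, pairs of small-subunit genes lie next to each other on the array's coordinates. On chromosome II, rps29 and rps27 are 608 bp apart and changed by -0.15 and -0.33 on the log2 scale, and both were lower. Also on chromosome II, rps1402 and rps1601 are 1143 bp apart and stood at 0.044 and -0.038, and neither passed. On chromosome III, rps2 and rps20 are 569 bp apart, and rps2 was lower at -0.15 while rps20 stood at -0.075 without passing. These pairs were picked out after the values were seen, and no difference between them was tested.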
